A study of Caenorhabditis elegans with 16 samples.

Results

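mir-34, mir-71 and mir-239a are 3 Caenorhabditis elegans microRNA (miRNA) genes that are best known from work on stress resistance and lifespan in larvae and adults. Here their abundant 5p strands, miR-34-5p, miR-71-5p and miR-239a-5p (cel-mir-34-5p, cel-mir-71-5p and cel-mir-239a-5p in the deposited lists), were followed by name in small RNA libraries of embryos at the comma stage, when the body of the embryo starts to elongate. They were chosen for these roles, with earlier results of these data known. They are 3 of the 366 miRNA strands listed across all libraries, of which 352 lie outside mir-51 to mir-57. miR-71-5p was a strand of intermediate abundance, miR-239a-5p was lower and miR-34-5p was close to the detection limit. In the fit of all libraries, none of the 3 passed the test for a difference from wild type in any of the 7 mutant strains, and in miR-54 the gap between the duplicates exceeded the largest gap between strain means for each of the 3.

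A miRNA is cut from a hairpin precursor, and 1 arm of the hairpin is then kept in an Argonaute protein, where its seed (bases 2 to 8) pairs with target mRNAs and lowers their translation or stability. miR-34 belongs to a deeply conserved family that in mammals is induced by p53, and in worms it is linked to survival after DNA damage. Worms without mir-71 live shorter, and the miRNA is known to act in neurons and to promote the activity of the longevity factor DAF-16. Loss of the mir-239 locus has the opposite effect in adults, with longer life and better survival of heat stress.

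The study examined the miR-51 family, the worm members of the miR-100 family. It compared wild type with strains in which the family was removed, reduced or replaced by a single hairpin. Small RNAs were sequenced from 8 strains with 2 biological duplicates each, 16 libraries in all, and each library came from 50 embryos of hermaphrodites grown at 20 degrees. The strains were the wild type N2 and 7 mutants that all carry nDf67, a deletion of mir-51 and mir-53. In several of them it is joined by n4100, which removes mir-52, or by nDf58, which removes mir-54 to mir-56. miR-51null (MLC1800) carries nDf67, n4100 and nDf58 and a rescuing extrachromosomal array with a fosmid of the miR-54 cluster, and the sources used here do not say whether the embryos collected had lost the array. miR-54C (MLC2290) carries nDf67 and n4100 and keeps the cluster of mir-54, mir-55 and mir-56. On the same background of nDf67 and n4100, miR-54+55 (MLC2394) has a further mir-56 deletion (luc177), and miR-54 (MLC2393), which grows slowly, a deletion of mir-55 and mir-56 (luc180). miR-52to51 (MLC1997, luc143), miR52to53 (MLC1917, luc140) and miR52to57seed (MLC1918, luc141) carry nDf67 and nDf58, and their mir-52 hairpin was exchanged for that of mir-51, of mir-53, or of mir-57 with the seed of the family. No agent was applied in any group.

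The libraries held between 18481 and 844718 unique molecular identifiers (UMIs, random tags that mark single ligated molecules) on miRNAs, with a median of 103072, and 1.05 to 1.63 reads per UMI. The guide strands of mir-51 to mir-56 took 26.7% and 30.8% of UMIs in N2 and 1.53% and 1.08% in miR-51null. They took 31.4% and 27.4% in miR-52to51 and 24.0% and 17.5% in miR52to53, so these strains were not depleted like miR-51null. Between these were miR-54C (14.5% and 13.3%), miR-54+55 (7.19% and 6.46%) and miR-54 (6.34% and 5.19%). In miR52to57seed they took 0.159% and 0.173%, and its introduced strand is not counted under any of these names. Guide strands of loci that a mutant lacks were each at 0.568% or below in every mutant library. The highest was miR-56-3p in replicate 1 of miR-51null. Strands from the cluster that nDf58 removes were not equally low in all strains with this deletion. Their guides were at 0.337% to 0.568% in replicate 1 of miR-51null and 0.218% to 0.367% in replicate 2. In miR-52to51, miR52to53 and miR52to57seed each was at 0.0322% or below. Only miR-51null has the array with this cluster, and whether the array was their source was not tested. All libraries carry the same batch label, and each strain has a 3′ adapter barcode of its own, so barcode and genotype cannot be told apart.

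Levels are given in CPM, here UMIs per 1000000 UMIs on strands outside mir-51 to mir-57, after TMM scaling. TMM (trimmed mean of M values) gives each library a factor and assumes that most strands do not change between libraries. Levels are relative to the other miRNAs, so a change that all miRNAs share would not show. In whole embryos, fewer cells that express a miRNA and less of it per cell cannot be told apart. The embryonic strands miR-35-3p to miR-42-3p, which mark C. elegans embryos, summed to between 309422 and 602934 CPM in every library.

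In the Ensembl annotation of the WBcel235 assembly, chromosome X carries the mir-34 hairpin (WBGene00003262) on its minus strand at 2969752 to 2969848, with miR-34-5p at 2969812 to 2969833, and no other annotated gene overlaps it. mir-239a (WBGene00003332, mir-239.1 in RefSeq) lies on the plus strand of chromosome X from 11792445 to 11792542, with miR-239a-5p at 11792460 to 11792482. Its paralog mir-239b (WBGene00003333) lies on the opposite strand from 11791302 to 11791399, and 1045 bases separate the 2 hairpins, which are transcribed away from each other. mir-71 (WBGene00003299) lies on the minus strand of chromosome I from 9379927 to 9380020, within an intron of ppfr-1 (WBGene00008878, a protein-coding gene on the same strand), and an exon of the noncoding RNA gene F16A11.6 overlaps it on the opposite strand. miR-71-5p is annotated at 9379983 to 9380005.

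miR-71-5p was the most abundant of the 3 in all 16 libraries. Its median was 1772 CPM, and its median rank was 45 among all strands. The counts ranged from 52 to 872 UMIs with a median of 173, and 4361 UMIs were counted in all. In N2 the level was 1458 and 1644 CPM. It was 2541 and 3314 in miR-51null, where both libraries lay above both wild-type libraries. miR-54C, at 1458 and 1744, overlapped N2, and miR-54+55, at 1902 and 1800, lay just above it. Much wider gaps separated the duplicates of other strains. miR-54 gave 4464 and 1504, miR-52to51 gave 1577 and 4833, and miR52to53 gave 4051 and 2081. In miR52to57seed both libraries, at 1159 and 1307, were below N2. The 3 highest libraries therefore belonged to 3 different strains, and in miR-54 and miR-52to51 the other library was within the N2 range.

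Ordered by their means, miR-52to51 (3205 ± 2302 CPM, SD, n = 2) came first for miR-71-5p, followed by miR52to53 (3066 ± 1392), miR-54 (2984 ± 2093), miR-51null (2927 ± 546), miR-54+55 (1851 ± 72.4), miR-54C (1601 ± 202), N2 (1551 ± 132) and miR52to57seed (1233 ± 105). Neighbours in this order overlapped in their libraries except miR-51null and miR-54+55, miR-54+55 and miR-54C, and N2 and miR52to57seed. The spread within the first 3 strains exceeded the difference between any of their means.

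miR-239a-5p had a median of 375.9 CPM and a median rank of 74. It was counted with 7 to 238 UMIs, 33.5 at the median and 893 in all. N2 gave 423 and 226 CPM, so the wild-type duplicates themselves were far apart. miR-51null gave 655 and 304, miR-54C 350 and 357, and miR-54+55 519 and 242. All of these strains overlapped N2. In miR-54 the level was 1085 and 415, of which the first was the highest of all 16 libraries. miR-52to51 gave 384 and 449, and miR52to53 gave 368 and 411. Only miR52to57seed, at 166 and 168, lay wholly to 1 side of N2, below it, as did 39.2% of 148 fitted strands in that strain. The means ran from 750 ± 474 in miR-54 (SD, n = 2) through 479 ± 248 in miR-51null to 324 ± 140 in N2 and 167 ± 1.92 in miR52to57seed. Of the 7 neighbouring pairs in the order of means, only N2 and miR52to57seed did not overlap.

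miR-34-5p was found at a median of 59.6 CPM, with a median rank of 133. It was counted with 0 to 36 UMIs, 5.5 at the median and 140 in all, and reached 10 UMIs in 4 libraries: replicate 1 of N2, of miR-51null and of miR-54, and replicate 2 of miR-52to51. N2 gave 31 and 8 UMIs, or 55.1 and 56.4 CPM. Against this, miR-51null (117 and 75.9), miR-54+55 (93.1 and 69.2) and miR-54 (184 and 62.7) lay above N2 in both libraries. The libraries of miR-52to51 (21.3 and 116) and miR52to53 (105 and 25.7) fell on either side of N2. Lower values were read in miR-54C (41.7 and 10.2, from 5 UMIs and 1 UMI) and in miR52to57seed (0 and 25.9, from 0 and 2 UMIs). A count of 0 in the first library of miR52to57seed allows a level of up to 62.1 CPM (3 UMIs), which is above both N2 values, so a lower level there was not detectable at this depth. Such limits and the counting intervals cover counting error only.

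**Figure D1:**
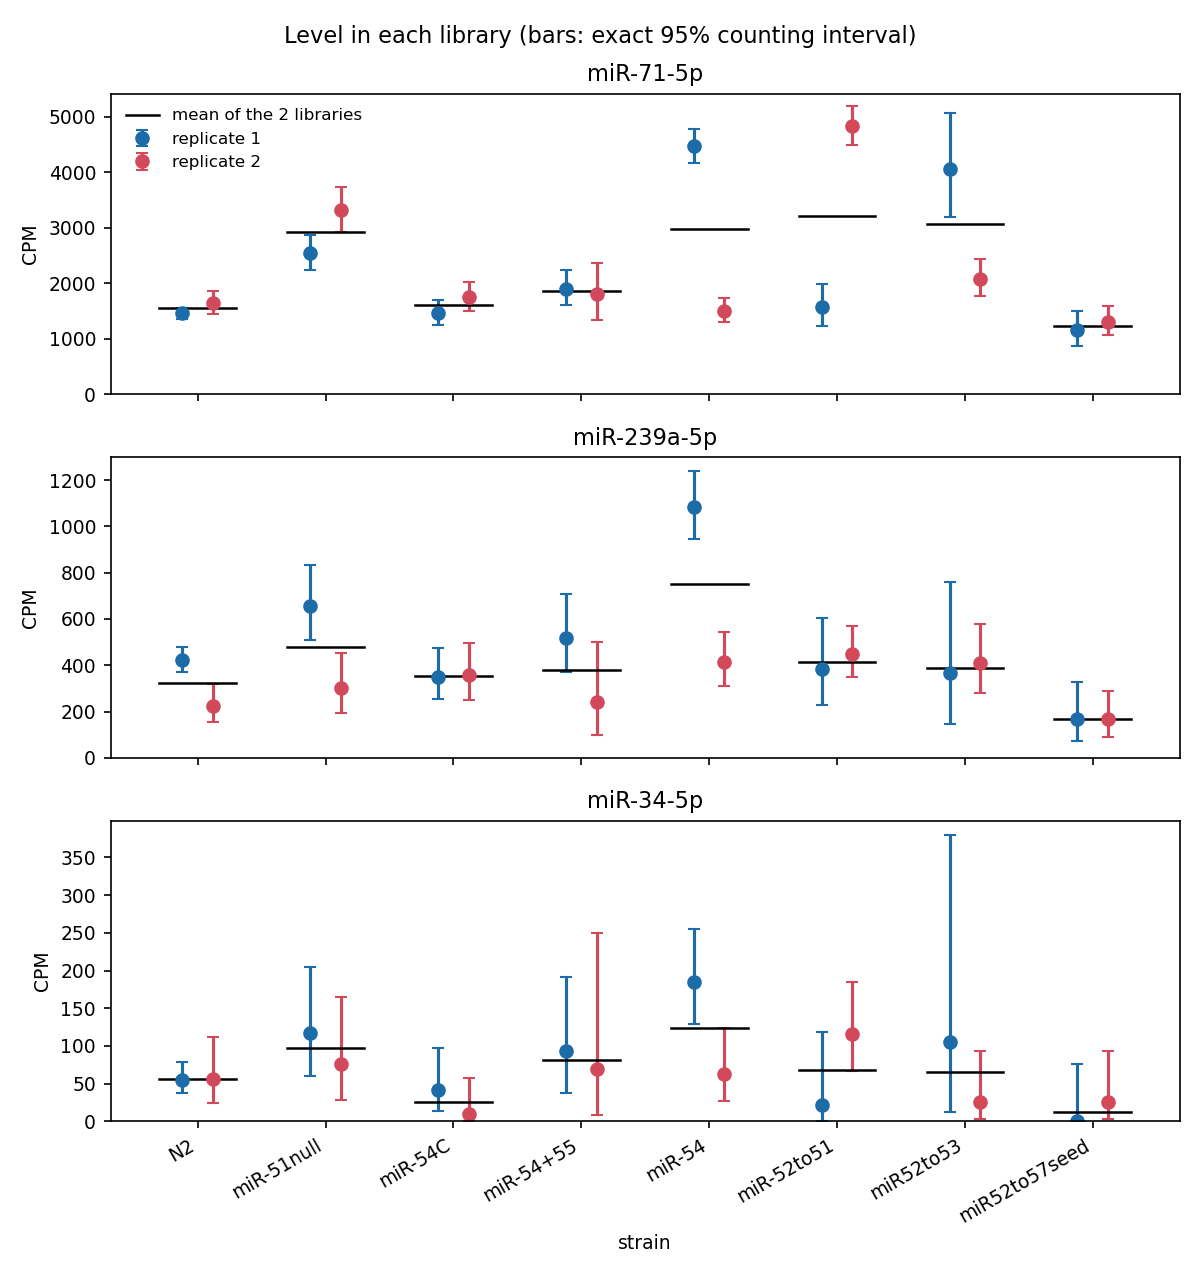
Level of miR-71-5p, miR-239a-5p and miR-34-5p in CPM (y axis, from 0) in the 8 strains (x axis), with 1 point per library, blue for replicate 1 and red for replicate 2, exact 95% counting intervals as bars and the mean of the 2 libraries as a black line. The blue point of miR-54 stands far above its red partner for miR-71-5p (4464 and 1504) and for miR-239a-5p (1085 and 415), and miR52to57seed is low in all 3 plots.

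The agreement between duplicates was examined next, as the ratio of replicate 1 to replicate 2 with an exact 95% counting interval. For miR-71-5p the interval excluded 1 in 4 of 8 strains. The ratio was 2.97 (2.54 to 3.49) in miR-54, 1.95 (1.46 to 2.57) in miR52to53, 0.326 (0.253 to 0.415) in miR-52to51 and 0.767 (0.644 to 0.914) in miR-51null. In the other 4 strains, N2 among them at 0.887 (0.766 to 1.03), the gap was within counting error. miR-239a-5p exceeded counting error in 3 strains: N2 at 1.87 (1.29 to 2.80), miR-51null at 2.16 (1.34 to 3.60) and miR-54 at 2.61 (1.93 to 3.60). For miR-34-5p only miR-54 did so, at 2.94 (1.34 to 7.32). Over all fitted strands outside mir-51 to mir-57, 33.1% of strand and strain pairs exceeded counting error, so gaps of this kind were not particular to these miRNAs. miR-54 had 69 of 148 strands and miR-51null nearly as many, 68 of 148. Only in miR-54 were all 3 miRNAs among them.

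**Figure D2:**
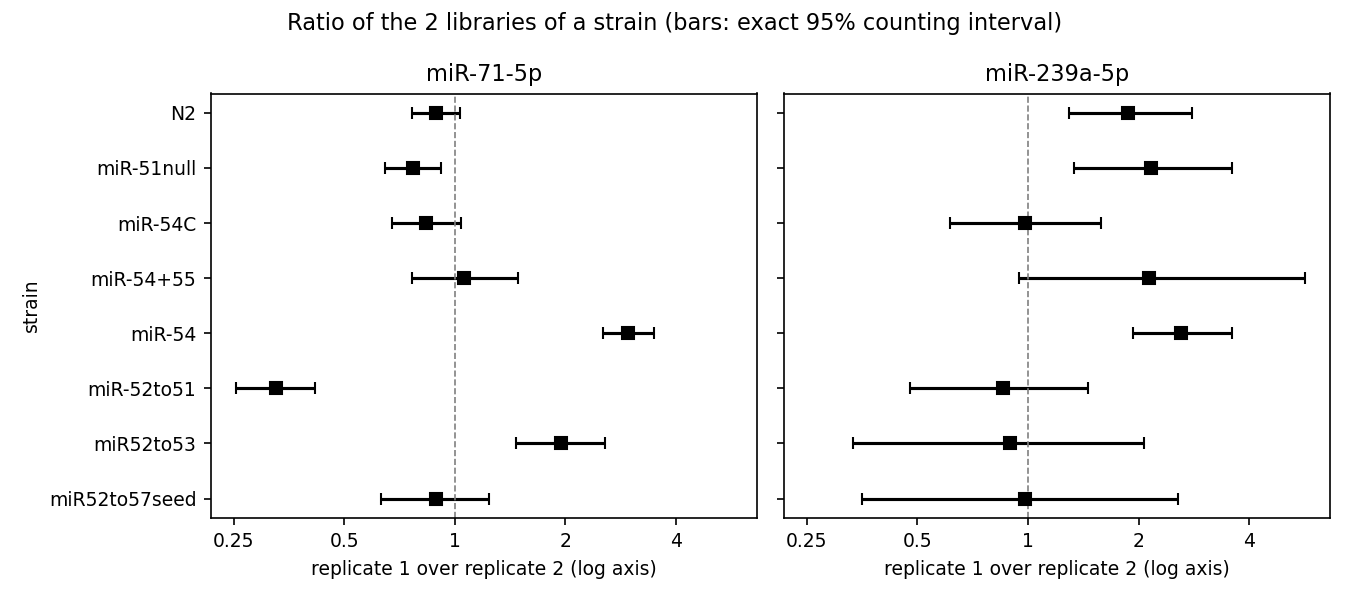
Ratio of replicate 1 to replicate 2 (x axis, log scale) for miR-71-5p and miR-239a-5p in each strain (y axis), with exact 95% counting intervals as bars and a dashed line at 1. miR-54 lies to the right for both strands, at 2.97 and 2.61, and miR-52to51 lies to the left for miR-71-5p only, at 0.326 against 0.855 for miR-239a-5p.

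Each mutant strain was compared with N2 to ask whether the levels of these miRNAs changed when the miR-51 family was reduced or replaced. A single edgeR fit with quasi-likelihood tests covered the UMIs of all 16 libraries and the 162 strands that reached 10 UMIs in 2 or more libraries, and p-values were adjusted over these strands. All 3 miRNAs passed this filter. For miR-34-5p the filter was met by the 4 libraries named above. Of the 21 contrasts, 0 had an adjusted p under 0.05, and 2 had an unadjusted p under 0.05. These were miR-71-5p in miR-52to51, where 16.2% of strands had such a p, and miR-239a-5p in miR-54, where 11.5% did. Of the 148 fitted strands outside mir-51 to mir-57, the share called was 4.05% in miR-51null, 0.676% in miR-54+55, 6.08% in miR-54, 5.41% in miR-52to51, 0.676% in miR52to57seed and 1.35% in miR52to53. In miR-54C it was 0.0%, where 11 strands (7.43%) had an unadjusted p under 0.05 and DESeq2 called 2 (1.35%).

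For miR-71-5p the estimates were above 0 in 6 of 7 strains. The largest was in miR-52to51, with a log2 fold change of 1.07 (SE 0.49, 95% interval 0.037 to 2.11, adjusted p = 0.195). Standard errors and intervals of the fold changes were derived from the fold change and the F statistic of its test, and are approximate. Similar estimates came from miR-54 (0.95, SE 0.48, -0.077 to 1.98, adjusted p = 0.296), miR52to53 (0.95, SE 0.50, -0.12 to 2.01, adjusted p = 0.319) and miR-51null (0.92, SE 0.49, -0.12 to 1.95, adjusted p = 0.334). These 4 intervals reach from near or below no change to rises of between 3.87-fold and 4.30-fold. miR-54+55 (0.26, adjusted p = 0.894), miR-54C (0.047, adjusted p = 0.972) and miR52to57seed (-0.33, adjusted p = 0.849) were nearer to N2. The estimate in miR-54 rested on 1 library: it was 1.53 (adjusted p = 0.0333, 8.78% of strands called) without replicate 2 and -0.082 without replicate 1. That in miR-52to51 was 1.64 (adjusted p = 0.0323, 6.08% of strands called) without replicate 1 and 0.084 without replicate 2, and without a filter on low counts it was called at 1.07 (adjusted p = 0.0235), where 4.96% of 343 strands were called. A test of all 8 strains together gave an adjusted p of 0.258 for miR-71-5p, with 3.38% of strands called.

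The libraries of miR-71-5p did not overlap with N2 in 4 strains, above it in miR-51null, miR-54+55 and miR52to53 and below it in miR52to57seed. Among all 148 strands, 20.3%, 18.2% and 21.6% lay above N2 in those first 3 strains, and 39.2% lay below it in miR52to57seed.

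miR-239a-5p had its largest estimate in miR-54, a log2 fold change of 1.19 (SE 0.47, 95% interval 0.20 to 2.18, adjusted p = 0.151). It was 1.70 (adjusted p = 0.0154) without replicate 2 of miR-54, when 8.78% of strands were called, and 0.26 without replicate 1. The lowest was -0.99 in miR52to57seed (SE 0.55, -2.15 to 0.18, adjusted p = 0.436), and a fit of that strain and N2 alone called it at -1.04 (adjusted p = 0.0284) in a fit that called 20.8% of 120 strands. The other 5 estimates ran from 0.091 to 0.54, and their adjusted p-values from 0.592 to 0.970. All 8 strains together gave an adjusted p of 0.253.

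miR-34-5p was estimated with the least precision. Its log2 fold change ran from -1.77 in miR52to57seed (SE 1.12, 95% interval -4.15 to 0.62, adjusted p = 0.519), which rests on 2 UMIs, to 1.18 in miR-54 (SE 0.66, -0.22 to 2.59, adjusted p = 0.339). Of the other estimates, miR-51null (0.81), miR-54+55 (0.60) and miR-52to51 (0.57) were above 0, and miR-54C (-1.01) and miR52to53 (-0.31) below it, with adjusted p-values from 0.602 to 0.918. All 8 strains together gave an adjusted p of 0.319. Both libraries of miR-34-5p lay above N2 in 3 strains, for which the share of all strands that did so was 20.3% (miR-51null), 18.2% (miR-54+55) and 23.6% (miR-54). Both lay below N2 in miR-54C and miR52to57seed, as did 33.8% and 39.2% of all strands.

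**Figure D3:**
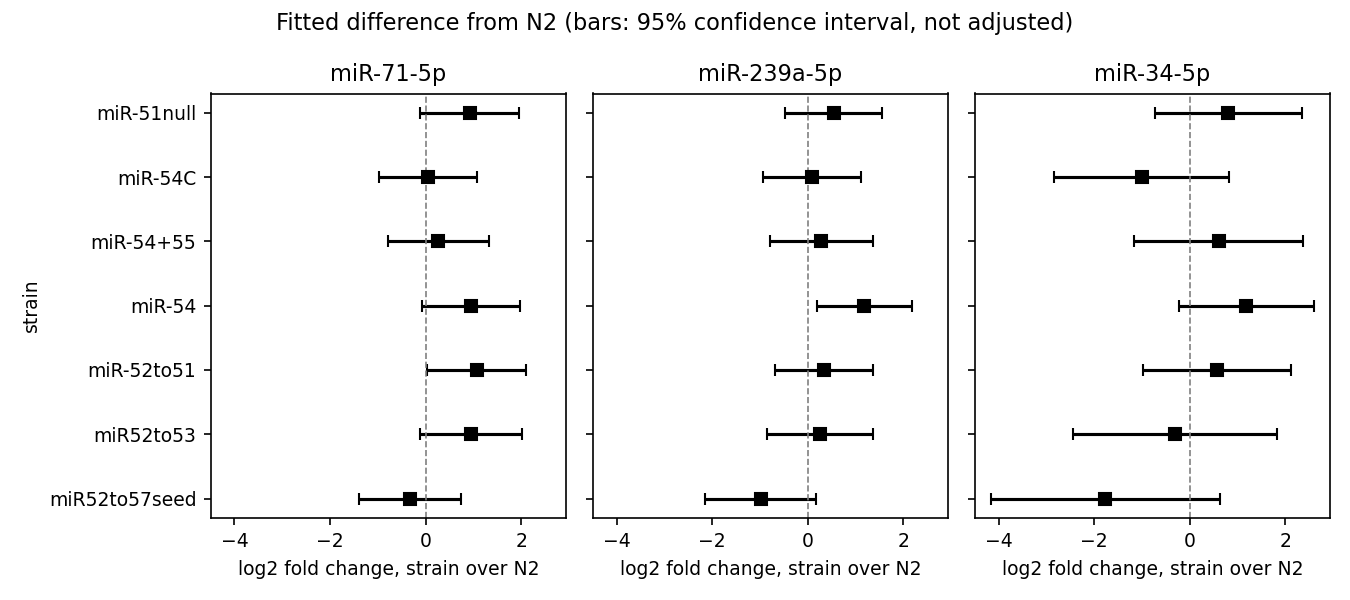
Fitted log2 fold change of each mutant strain over N2 (x axis) for miR-71-5p, miR-239a-5p and miR-34-5p in the 7 mutant strains (y axis). The 95% confidence intervals are approximate, derived from the fold change and its F statistic, and not adjusted for the number of contrasts. A dashed line marks 0. The intervals of miR-71-5p in miR-52to51 (0.037 to 2.11) and miR-239a-5p in miR-54 (0.20 to 2.18) are the only 2 that exclude 0, and those of miR-34-5p are the widest.

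A ratio of 2 strands within a library needs no scaling. miR-71-5p exceeded miR-239a-5p 3.45-fold to 11.0-fold in the 16 libraries, with a median of 4.97, and it exceeded miR-34-5p 20.4-fold to 171-fold in the 15 libraries in which miR-34-5p was counted. The log2 ratio of miR-71-5p to miR-239a-5p was 2.32 ± 0.763 in N2 (SD, n = 2) and 2.53 ± 0.615 in the other libraries (SD, n = 14). The difference of -0.21 was within the spread (exact two-sided permutation test, p = 0.642, where the 120 arrangements allow no p below 0.00833). Single libraries were permuted, so the 2 libraries of a strain were treated as independent. The 14 come from 7 strains, and their SD mixes spread within and between strains. The ratio also varied between duplicates, with means of 3.87 ± 0.347 in miR-54, 7.44 ± 4.71 in miR-52to51 and 8.03 ± 4.20 in miR52to53 (SD, n = 2). In miR-54, where both strands were higher in replicate 1 (2.97-fold and 2.61-fold), the ratio was nearly the same in both libraries, at 4.11 and 3.62. In miR-52to51 miR-71-5p alone differed between duplicates, and the ratio was 4.11 and 10.8.

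The levels of these miRNAs were set beside those of miRNAs with a known stage. let-7, lin-4, miR-48, miR-84 and miR-241 direct the timing of larval development, and they are scarce in embryos. Their 5 guide strands summed to 875 and 734 CPM in N2 and to 1935 and 1733 in miR-51null. In miR-54 they summed to 4602 and 917, in miR-52to51 to 810 and 2794, and in miR52to53 to 4103 and 1799. The 3 libraries highest in this list, replicate 1 of miR-54, replicate 1 of miR52to53 and replicate 2 of miR-52to51, were also the 3 highest for miR-71-5p. From high to low they ranked 1, 9 and 4 of 16 for miR-239a-5p and 1, 4 and 3 for miR-34-5p. The 2 libraries of miR52to57seed, at 352 and 220, were the lowest in the list and the lowest for miR-71-5p and miR-239a-5p. For miR-34-5p they ranked 16 and 12. In them 3 and 2 of the 5 larval strands were at 0. In the larval list, miR-54C (583 and 1101) and miR-54+55 (1610 and 485) lay between. The 3 libraries highest in the larval list were also the 3 lowest in the embryonic list. Their embryonic sums were 424195 CPM in replicate 1 of miR-54, 309422 in replicate 1 of miR52to53 and 388762 in replicate 2 of miR-52to51. Replicate 1 of miR-54C, low in the larval list, was close to these at 424351. Replicate 1 of miR52to53 had the fewest UMIs of all libraries, 13861 outside mir-51 to mir-57, and the largest TMM factor, 1.37. How many other strands were also highest in the 3 libraries highest in the larval list was not counted. The part of developmental stage in the levels of these miRNAs was not tested.

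Leaving out those 3 libraries was chosen after seeing the data and takes away the 3 highest values of miR-71-5p itself, so lower estimates in their strains, each left with 1 library, and a smaller spread follow from the choice. Without them, the estimate for miR-71-5p was -0.082 in miR-54, 0.084 in miR-52to51 and 0.41 in miR52to53. In miR-51null, which kept both libraries, it was 0.86 (SE 0.21, adjusted p = 0.0158), and 7.41% of 135 strands were called in that strain, whereas the fit of all 16 libraries did not call it. Both miR-51null libraries were above both N2 libraries in the larval list too.

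**Figure D4:**
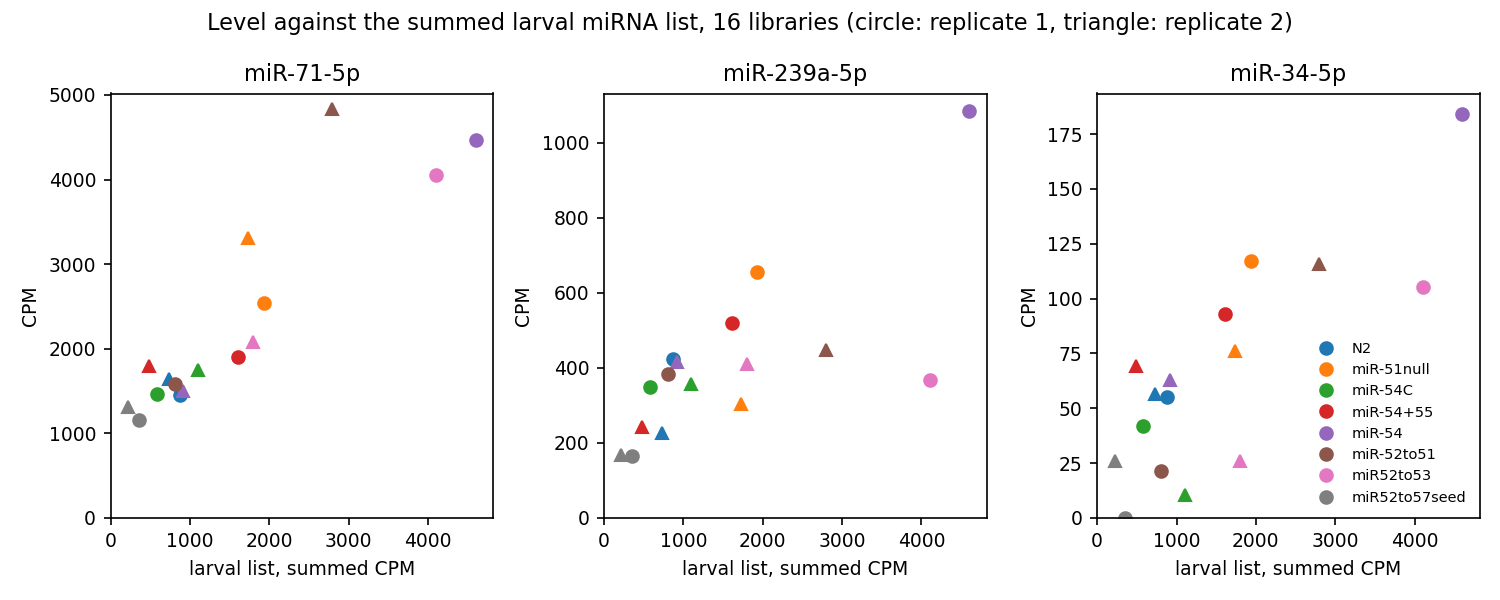
Level of miR-71-5p, miR-239a-5p and miR-34-5p (y axes, CPM) against the summed level of the larval list (x axis, CPM) in 16 libraries, with colours for strains, circles for replicate 1 and triangles for replicate 2. Replicate 1 of miR-54 and of miR52to53 and replicate 2 of miR-52to51, at 4602, 4103 and 2794 on the x axis, are the 3 highest points for miR-71-5p, and miR52to57seed is at the lower left of each plot.

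The hairpins of the 3 miRNAs also gave 3p strands, which are the passenger arms. Over all libraries the 5p strand made up 98.2% of miR-71 UMIs (95% exact interval 97.8 to 98.6, 4361 of 5p and 80 of 3p), 91.5% of miR-239a (89.6 to 93.2, 893 and 83) and 85.9% of miR-34 (79.6 to 90.8, 140 and 23). The 5p arm was thus the major arm of each, by the narrowest margin for miR-34. In the 4 libraries highest in miR-71-5p, the level of miR-71-3p differed. It was at 49.8 and 49.4 CPM in N2, and at 40.95 in replicate 1 of miR-54 and 40.8 in replicate 2 of miR-52to51, from 8 and 6 UMIs. In replicate 1 of miR52to53 it was 105 CPM from 2 UMIs, and in replicate 2 of miR-51null 114 CPM from 9 UMIs. The 5p share was 96.7% (95.3 to 97.8) and 97.1% (94.1 to 98.8) in N2, 99.1% (98.2 to 99.6) in replicate 1 of miR-54, 99.2% (98.2 to 99.7) in replicate 2 of miR-52to51, 97.5% (91.2 to 99.7) in replicate 1 of miR52to53 and 96.7% (93.8 to 98.5) in replicate 2 of miR-51null. All of these intervals overlap that of replicate 2 of N2. Those of replicate 1 of miR-54 and replicate 2 of miR-52to51 lie above that of replicate 1 of N2. Those of replicate 1 of miR52to53 and replicate 2 of miR-51null overlap it. For miR-239a the 5p share was 90.5% (86.3 to 93.8) and 76.2% (60.5 to 87.9) in N2. In replicate 1 of miR-54 it was 97.7% (94.7 to 99.2), above both N2 intervals. There miR-239a-3p was at 25.6 CPM, against 44.4 and 70.5 in N2. These mutant libraries were singled out after their levels were seen, because their 5p level was high. The 5p count is part of the share, so a high share follows in part from this choice. The 3p counts are also small, with 5 UMIs of miR-239a-3p in replicate 1 of miR-54. No conclusion is drawn from the gaps between these shares and those of N2. Of the 3p strands, only miR-239a-3p passed the filter of the fit, and it was called in 0 of 7 strains, with adjusted p-values of 0.392 or higher. miR-71-3p and miR-34-3p were too rare to be tested.

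mir-239a and mir-239b are often treated as a single locus because deletions remove both. In these embryos nearly all of the signal came from mir-239a. miR-239a-5p had 893 UMIs and miR-239b-5p 25, a share of 97.3% for miR-239a-5p (95% exact interval 96.0 to 98.2), and miR-239b-5p was at 0 in 5 libraries. The deposited counts divide a read that fits several strands. None of the 48 values of the 3 miRNAs was fractional and none changed when such reads were counted in full, so no miR-239a-5p UMI was shared with its paralog.

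Other miRNAs with reported roles in stress or lifespan were examined as a list of 11 strands. It holds lin-4, whose loss shortens life, miR-80, whose loss gives a state like dietary restriction, miR-238 and miR-246, which like miR-71 are needed for a normal lifespan, miR-228 and miR-124, which are known from glia and sensory neurons, miR-239b, and miR-229, miR-64, miR-65 and miR-66, which are encoded together. lin-4 is also in the larval list. Of these strands 10 were fitted, all but miR-239b-5p, and over 7 strains 1 call was made, lin-4-5p in miR-54. lin-4-5p was at 110 and 42.3 CPM in N2 and at 655 and 227 in miR-54, a log2 fold change of 2.41 (SE 0.68, adjusted p = 0.0297). The duplicates of miR-54 differed beyond counting error (ratio 2.88, 1.91 to 4.48). Estimates of similar size were not called in miR52to53 (2.38, adjusted p = 0.0634), miR-52to51 (2.14, adjusted p = 0.0565) and miR-51null (1.99, adjusted p = 0.0849). The estimate was 1.28 in miR-54+55, -0.33 in miR-54C and -3.24 in miR52to57seed, also not called. The list contributed 0 calls of a lower level, and 6.08% of all strands were called in miR-54. Its median log2 fold change was 0.22 in miR-54, 0.23 in miR-52to51 and -0.42 in miR52to57seed, beside 0.038, -0.081 and -0.14 over all fitted strands outside mir-51 to mir-57. In the other 4 strains the list median lay between -0.17 and 0.026. miR-80-3p, miR-229-5p, miR-64-5p, miR-65-5p and miR-66-5p were each more abundant than miR-71-5p in every library, and miR-246-3p, at 0 to 133 CPM with a median of 19.97, was scarcer than miR-34-5p at the median.

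lin-4-5p also differed among the 8 strains together (adjusted p = 0.0150), which none of the 3 miRNAs did. It was counted with 0 and 1 UMI in miR52to57seed, where the 95% exact intervals reach 76.3 and 72.1 CPM, and it was highest in replicate 1 of miR52to53 (684) and replicate 1 of miR-54 (655). miR-238-3p, which is grouped in a family with miR-239a and miR-239b, was at 774 ± 32.0 CPM in N2, 1287 ± 147 in miR-51null, 1470 ± 1005 in miR-54, 1227 ± 379 in miR-52to51 and 667 ± 7.68 in miR52to57seed (SD, n = 2). It was called in 0 of the 7 strains.

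The strands whose pattern over the 16 libraries was most like that of each miRNA were found by the mean absolute difference of centred log2 levels. For miR-71-5p these were miR-238-3p (0.270), let-7-5p (0.381) and miR-61-5p (0.433), where the median over the 147 strands compared was 0.662. For miR-239a-5p they were miR-75-3p (0.325) and the 2 copies of miR-5592-3p (0.338 each, with identical values since reads of the copies cannot be told apart), against a median of 0.620. miR-238-3p, from a hairpin on chromosome III, was thus closest to miR-71-5p and not among the 3 closest to miR-239a-5p. The 16 points share their strains and libraries, and these values are a description. miR-34-5p, with a median of 5.5 UMIs, was not ranked.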

How the data were processed

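The deposited values are estimated counts of UMIs and of reads per miRNA strand and library, and a further count of UMIs in full; the authors divided reads that fit several strands and did not normalize. The submitters' processing notes name WBcel235; the aligner's version is not given in the sources used here. The study scaled to spike-ins, which are not used here, so levels are relative to the other miRNAs. Strands missing from a list were taken as 0.

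UMIs were rounded and fitted in edgeR 4.0.16 (R 4.3.3) with 1 group per strain, all 16 libraries, and library sizes from strands outside mir-51 to mir-57 with TMM factors (0.876 to 1.37). Strands needed at least 10 UMIs in 2 libraries. Calls needed a Benjamini-Hochberg adjusted p under 0.05. The biological coefficient of variation was 26.1% in common and 35.7% for miR-71-5p, 34.6% for miR-239a-5p and 39.0% for miR-34-5p. Intervals for shares and ratios of counts are Clopper-Pearson. The standard error of a log2 fold change was not taken from the model. It was set to the absolute log2 fold change divided by the square root of the F statistic, and the confidence interval was built from it. For strands with low counts such an interval and the p-value of the test need not match. The fit was tested on data simulated at the common coefficient of variation, which is below that of each of the 3 miRNAs. That test therefore does not show how the fit performs for them. DESeq2 1.42.0, Python 3.11.15, pandas 2.3.3, numpy 2.4.6 and scipy 1.17.1 served the rest.

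The strands named are the 3 miRNAs, their 3p arms, miR-239b-5p, miR-238-3p, the stage and stress lists and, for a miRNA with a median of at least 20 UMIs, the 3 strands most like it. The members and lists were chosen with earlier results of these data known. miR-124 (3000 to 7382 CPM) and miR-1 (5520 to 21399), markers of sensory neurons and muscle, were found in every library, and miR-124 is also in the stress list. Alternatives were DESeq2, the sum of the other miRNAs without TMM, no filter, at least 50 UMIs, reads, UMIs in full, the strain and N2 alone, a replicate block and each library left out. Leaving out the 3 libraries highest in the larval list was added after seeing the data.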

Additional observations from a re-analysis of the deposited data

How the results depend on the processing

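The 21 contrasts of the 3 miRNAs with N2 gave 511 values under 25 alternatives, of which 13 changed sign and 6 were called, with a lowest adjusted p of 0.0154. DESeq2 gave no adjusted p for 3 of the contrasts of miR-34-5p and none for its test over all strains, and a minimum of 50 UMIs removed this strand. The sum of the other miRNAs without TMM moved the median of all strands against N2 by up to 0.24 (in miR-52to51, from -0.081 to 0.16) and DESeq2 by up to 0.12 (miR-54+55). Neither turned the sign of a contrast of the 3 miRNAs. Depth limits miR-34-5p most, and 2 libraries per strain leave standard errors of about 0.5 for the other 2 strands.

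Leaving out 1 library at a time, the log2 fold change of miR-71-5p ranged from 0.71 to 1.01 in miR-51null, -0.072 to 0.17 in miR-54C, 0.13 to 0.37 in miR-54+55, -0.082 to 1.53 in miR-54, 0.084 to 1.64 in miR-52to51, -0.44 to -0.27 in miR52to57seed and 0.41 to 1.39 in miR52to53. That of miR-239a-5p ranged from -0.23 to 1.05, -0.26 to 0.61, -0.45 to 0.78, 0.26 to 1.70, -0.026 to 0.80, -1.36 to -0.46 and -0.047 to 0.82 in the same order, and that of miR-34-5p from 0.35 to 1.06, -2.34 to -0.39, 0.31 to 0.73, 0.12 to 1.71, -1.30 to 1.04, -5.82 to -1.10 and -1.11 to 0.91. The -5.82 of miR-34-5p in miR52to57seed comes from replicate 1 alone, which had 0 UMIs, so its size does not estimate a level. Where 1 library of a strain is left, it is assumed to vary like those of the other strains. The adjusted p over all strains ranged from 0.0522 to 0.472 for miR-71-5p, from 0.0469 (without replicate 2 of miR-54, where 8.11% of strands were called against 3.38% with all libraries) to 0.470 for miR-239a-5p and from 0.144 to 0.539 for miR-34-5p. The log2 ratio of miR-71-5p to miR-239a-5p, N2 minus the others, ranged from -0.75 to 0.33, the latter without replicate 1 of N2. The strands called ranged from 2 to 9 in miR-51null, 0 to 1 in miR-54C, 1 to 3 in miR-54+55, 1 to 13 in miR-54, 2 to 12 in miR-52to51, 0 to 2 in miR52to57seed and 0 to 10 in miR52to53.

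Without the filter, the test over all strains called miR-71-5p (adjusted p = 0.000399) and miR-239a-5p (0.0349), with 5.54% of 343 strands called, and miR-71-5p was called in miR-52to51 (log2 1.07). The fit of miR52to57seed and N2 alone called miR-239a-5p (-1.04). Without the 3 libraries highest in the larval list, which are also its own 3 highest, miR-71-5p was called in miR-51null (0.86) and was at -0.082 in miR-54, and miR-34-5p was at -1.30 in miR-52to51. The cause was not tested.

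The strands called in the fit of all libraries were 6 in miR-51null, 0 in miR-54C, 1 in miR-54+55, 9 in miR-54, 8 in miR-52to51, 1 in miR52to57seed and 2 in miR52to53. Counts that moved by over 1.5 times were, with DESeq2, 2 in miR-54C, 2 in miR-54+55, 3 in miR52to57seed and 7 in miR52to53. With no filter they were 10 in miR-51null, 1 in miR-54C, 2 in miR-54+55, 17 in miR-52to51, 5 in miR52to57seed and 5 in miR52to53. Reads in place of UMIs gave 3 in miR-51null, 5 in miR-54, 0 in miR52to57seed and 1 in miR52to53. A strain and N2 alone gave 16 in miR-54C, 2 in miR-54+55, 1 in miR-54, 13 in miR-52to51 and 25 in miR52to57seed. A minimum of 50 UMIs, and UMIs in full, gave 0 in miR52to57seed. Without the 3 libraries there were 10 in miR-51null, 3 in miR-54C, 3 in miR-54, 5 in miR-52to51, 0 in miR52to57seed and 1 in miR52to53.

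Replicate numbers did not pair the samples: over 28 pairs of strains, deviations of same-numbered libraries correlated between -0.455 and 0.392 (median -0.0324), with 8 pairs over 0.1. With the replicate number as a block, 0 strands were called in miR52to57seed and 4 in miR52to53, and none of the 21 contrasts of the 3 miRNAs was called.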
